A study of Mus musculus with 47 samples.

Results

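Gene expression in wild-type mouse olfactory epithelium was compared between postnatal day 14 (P14) and postnatal day 3 (P3), over the first to the second week of life. The libraries were taken by the age and strain in their labels, 3 at each age, which is 6 of the 47 libraries in the series. The series followed the dissected epithelium at 7 ages from P0 to P21 in 2 kinds of mice, and polyadenylated RNA was extracted in TRIzol and sequenced. Both groups compared here carried the strain label C57BL/6J, with no treatment named. The second kind of mouse, here Kir, had OIVT;Kir2.1 as its strain, Kir2.1 being an inward-rectifier potassium channel. Which promoter drives it, and in which cells, was not found in the labels, and Kir libraries enter a single comparison near the end.

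The olfactory epithelium is a sheet that renews itself throughout life. Globose basal cells divide and give rise to immature and then mature olfactory sensory neurons, each of which expresses mainly a single odorant receptor and signals odor through cyclic AMP. Sustentacular cells support the neurons and are rich in enzymes that act on foreign chemicals, and Bowman's glands below the sheet secrete mucus and odorant-binding proteins. A dissected piece also holds glia, vessels, immune cells and some of the bone, cartilage and connective tissue of the nose.

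Gene counts ran from 9733616 to 15012092 per library. Levels are given as CPM, gene counts scaled to a TMM-normalized library total of 1000000, and differences as log2 fold change, P14 minus P3, with the standard error. A gene was called at an edgeR adjusted p below 0.05. Nothing in the labels ties a library to an animal, so p-values measure only the spread between libraries, which may be technical. In bulk tissue, fewer cells of a type and less RNA per cell cannot be told apart. In some tissues 2 libraries stood apart. P3 replicate 1 was nearly without Bpifb9b, a secreted gland protein, at 6.14 CPM beside 19736 and 26787 CPM in replicates 2 and 3, and it alone held clear skeletal muscle transcripts (Myl1, a myosin light chain, at 18.1 CPM beside 0 and 0.0703). P14 replicate 3 held less bone collagen transcript (Col1a1, 1653 CPM beside 6793 and 8773). Title and stage label disagreed for P0 replicate 3 (P0 against P3), which was kept at P0.

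Of 19927 genes tested, 2569 (12.9%) were higher at P14 and 1932 (9.7%) were lower, 4501 in all (22.6%). The median log2 fold change of all tested genes was 0.03. Changes of at least 2-fold were called for 901 genes upward (4.52%) and 666 downward (3.34%). The 3 P14 libraries did not overlap the 3 P3 libraries for 7900 genes (39.6%). The number of calls depended on single libraries. Without P3 replicate 2 it was 2739, with 1319 higher, and without P14 replicate 1 the higher genes numbered 1607. With both libraries that stood apart left out, an alternative chosen after seeing the data, 1599 genes were higher and 1846 lower.

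**Figure D1:**
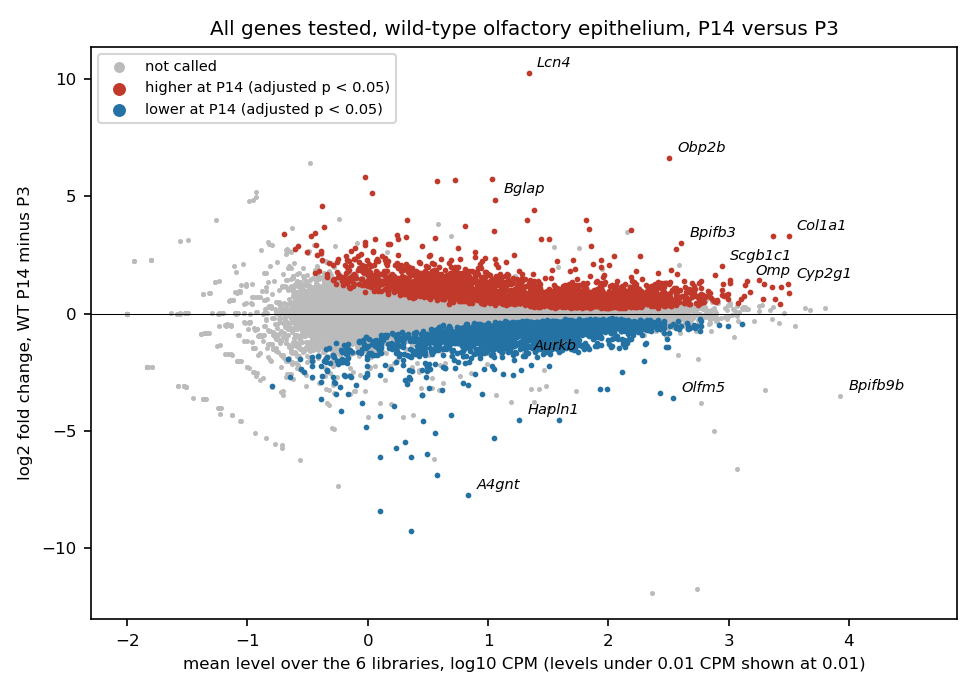
Log2 fold change of each tested gene, P14 minus P3 (vertical), against its mean level over the 6 libraries on a log10 CPM scale (horizontal), with called genes in color. Called rises include Omp at 1.39 and Obp2b at 6.62, and among the called falls Olfm5 lies at -3.60, while the abundant Bpifb9b, at -3.51, was not called.

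Genes of mature neurons and of odor signaling rose together. Omp, the olfactory marker protein of mature sensory neurons (chromosome 7, 98143359 to 98145502 in GRCm38), stood at 799, 772 and 790.2 CPM in the 3 P3 libraries. At P14 it stood at 1906, 2038 and 2258 CPM. The groups lie far apart, with a log2 fold change of 1.39 ± 0.19 (edgeR adjusted p = 1.99e-06), a 2.63-fold rise.

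Of 16 genes of the olfactory transduction pathway, 13 rose and none fell, beside 12.9% and 9.7% of all genes, and their median log2 fold change was 1.07. Their summed level was 4791 to 5416 CPM at P3 and 10078 to 10779 CPM at P14. The cation channel that cyclic AMP opens supplied 2 of the clearest rises. Cnga2, its main subunit, went from 351, 302 and 321 CPM to 859, 841 and 875 CPM (1.40 ± 0.16, adjusted p = 3.91e-08). Cnga4, a modulatory subunit, went from 96.2, 95.5 and 107 CPM to 261, 288 and 293 CPM (1.5 ± 0.19, adjusted p = 4.25e-07). In neither gene did any P14 library come near a P3 library. Gnal, the olfactory G protein alpha subunit, rose from 822 ± 92.8 to 1911 ± 200.3 CPM (SD, n = 3 each). Ric8b, which stabilizes that subunit, rose by 1.11 ± 0.15, and Adcy3, the adenylyl cyclase it activates, by 1.32 ± 0.21. Stoml3, a membrane protein of olfactory cilia, rose by 1.44 ± 0.17, and Pde1c, a phosphodiesterase that degrades cyclic AMP, by 1.05 ± 0.14. The 3 members not called were the chloride importer Slc12a2 (0.35 ± 0.15, adjusted p = 0.0799), the receptor kinase Grk3 (-0.14 ± 0.15) and Camk4 (-0.15 ± 0.18).

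Of 16 genes of mature sensory neurons, Omp among them, 12 rose and none fell (median log2 fold change 0.85). Umodl1 rose by 1.31 ± 0.21, and S100a5, a calcium-binding protein of mature neurons, by 1.15 ± 0.28. Rtp1 and Rtp2, which carry odorant receptors to the cell surface, rose less. Rtp1 was at 487, 413 and 445 CPM at P3 and at 762, 732 and 826 CPM at P14 (0.79 ± 0.18), and Rtp2 rose by 0.80 ± 0.19. Kirrel3, an adhesion molecule of sorting axons, rose by 0.84 ± 0.18, while its relative Kirrel2 was not called (0.72 ± 0.35, adjusted p = 0.133). Gucy2d, a marker of a small set of neurons that use cyclic GMP, stood at 5.64 ± 0.83 and 7.57 ± 0.68 CPM and was not called.

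Of 16 presynaptic genes 8 rose and none fell (median 0.56). Syt1, the calcium sensor of transmitter release, went from 152, 126 and 141 CPM to 311, 302 and 290.4 CPM (1.11 ± 0.24, adjusted p = 0.000749). Slc17a6, the vesicular glutamate transporter of these neurons, rose by 0.86 ± 0.20 and Syp, synaptophysin, by 0.79 ± 0.22. The 8 became 4 without P14 replicate 1, 3 without P14 replicate 2 or P3 replicate 3, and 2 without P3 replicate 2.

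Immature neuron genes did not move as a group: 5 of 20 rose, 2 fell, and the median was 0.00. The falls are a share near the 9.7% of all genes called lower. Gap43, the growth-cone protein that defines immature neurons, stood at 338 ± 85 CPM at P3 and 303 ± 7.41 CPM at P14 (-0.16 ± 0.23, adjusted p = 0.684). Gng8, a G protein gamma subunit of immature neurons, stood at 66.7 ± 1.92 and 63.8 ± 10.3 CPM. The chemokine receptor Cxcr4 fell from 95.5, 107 and 94.9 CPM to 47.1, 53.9 and 59.8 CPM (-0.89 ± 0.14, adjusted p = 1.66e-05). The tubulin-binding Stmn4 rose by 1.06 ± 0.27 and Hdac9, a histone deacetylase, by 0.99 ± 0.17. The 5 rises became 2 without P14 replicate 1 or 2 or without P3 replicate 2 or 3, and the falls 1 without P14 replicate 1. Regulators of odorant receptor choice were split, with 3 of 15 higher and 3 lower, beside 12.9% and 9.7% of all genes. Those lower were Kdm1a, the histone demethylase LSD1 (-0.37 ± 0.09), Lbr, a nuclear envelope receptor that tethers heterochromatin (-0.44 ± 0.10), and Cbx5, the heterochromatin protein HP1 alpha (-0.58 ± 0.15). Those higher were the transcription factors Ebf4 (0.80 ± 0.24) and Ebf2 (0.44 ± 0.16) and the kinase Eif2ak3 (0.27 ± 0.10). The 3 rises became 0 without P14 replicate 2 or P3 replicate 2 and 1 without P14 replicate 1.

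**Figure D2:**
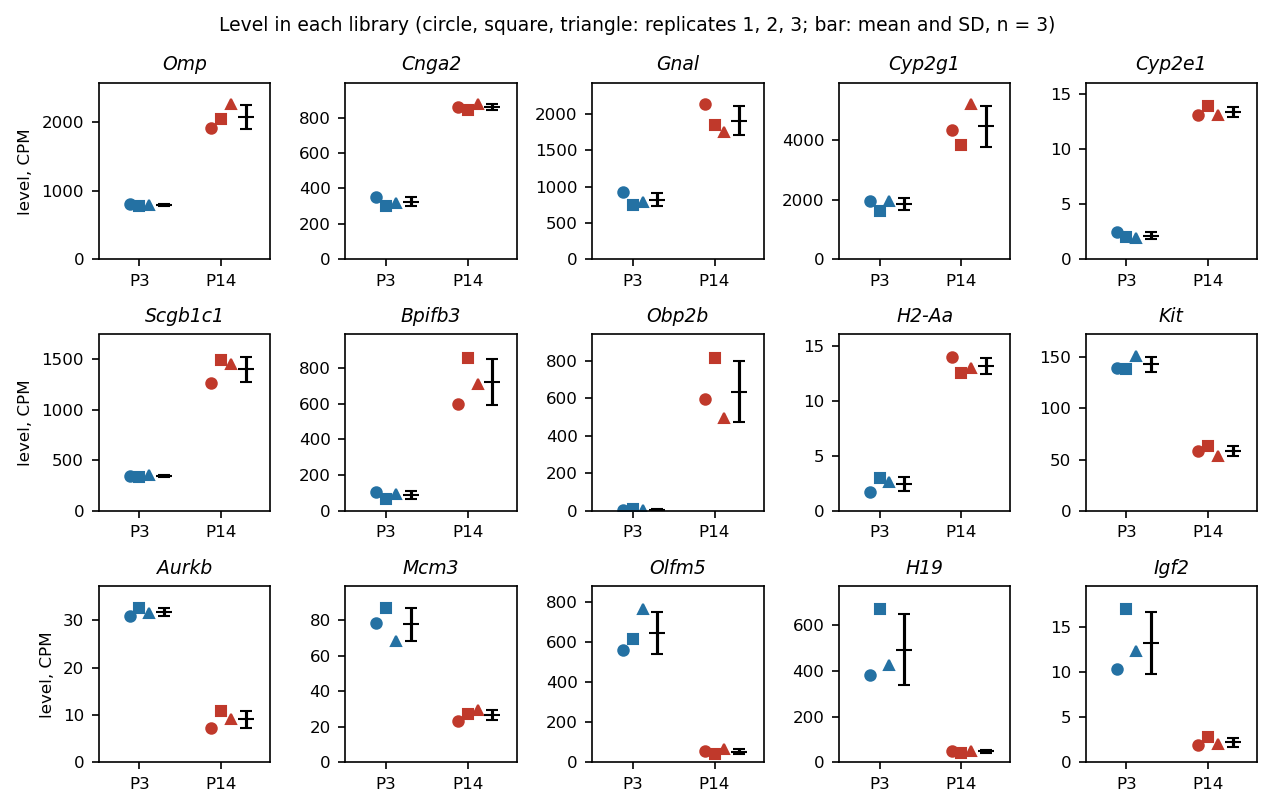
Level in CPM (vertical, from 0) of 15 genes in each P3 and P14 library, with the mean and SD (n = 3) beside each group. For every gene shown the 3 P14 libraries lie wholly above or wholly below the 3 P3 libraries, as for Omp at 1906 to 2258 against 772 to 799 CPM.

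The promoter of Cnga2 is shown as an example of a neuronal promoter that holds the letters searched, chosen after the search. The 250 bases before its start, from RefSeq on GRCm38.p6 (chrX:71991599-71991848, plus strand), read as follows, with the letters CCCNNGGG in capitals, a core that motifs of the Ebf factors contain.
Cnga2: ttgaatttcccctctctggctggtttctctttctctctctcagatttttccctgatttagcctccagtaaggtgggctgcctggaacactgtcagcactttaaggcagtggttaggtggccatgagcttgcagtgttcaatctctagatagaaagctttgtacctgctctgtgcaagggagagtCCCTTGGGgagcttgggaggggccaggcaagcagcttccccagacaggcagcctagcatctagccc
These letters were searched on both strands. They occur in such windows of 10 of the 25 transduction and mature neuron genes that have a promoter in the RefSeq table (40%) and in 13.4% of all 27025. The promoters of Stoml3 and Cnga4, whose transcripts rose by 1.44 and 1.5, hold none. A longer form that was also searched, with a T before and an A after these letters, occurs in 1 of the 25 (4.0%), Gfy and not Cnga2, and in 0.914% of all. A match describes the letters only.

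Odorant receptor genes were mostly higher at P14. Of 1106 such genes 997 passed the filter on low counts, and of those tested 493 rose and 1 fell, with 970 above and 27 below zero and a median log2 fold change of 1.01. The middle of the distribution was narrow, from 0.68 at the 25th to 1.33 at the 75th percentile. Of the receptors under 1 CPM at P3, 91 of 232 were called higher, against 73 of the 118 at 5 CPM or more. The filter took in all groups, so a receptor low at P3 could be tested because other ages were high. The direction of such receptors is in part set by the filter. These shares also rest on unlike numbers of reads, and their difference was not tested. The number called was 224 without P3 replicate 2, 304 without P14 replicate 1 and 309 without P14 replicate 3, with 1 lower in each, and 246 with both libraries that stood apart left out, where the median was 0.89.

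Olfr536 (chromosome 7, 140500849 to 140507396), the receptor with the highest mean level at both ages, went from 56.1, 44 and 50.2 CPM to 110.4, 126 and 133 CPM (1.30 ± 0.17, adjusted p = 9.55e-07). Olfr1507 on chromosome 14, also known as MOR28, rose from 29 ± 3.35 to 80.5 ± 16.1 CPM. The largest called rise was that of Olfr888 on chromosome 9, from 0.21 ± 0.16 to 1.7 ± 0.61 CPM (3.05 ± 0.64). The single receptor that fell was Olfr513 (chromosome 7, 108750973 to 108756800). It stood at 9.21, 8.65 and 9.34 CPM at P3 and at 1.32, 1.56 and 3.43 CPM at P14 (-2.07 ± 0.33, adjusted p = 1.55e-05), and the groups do not overlap. These receptors other than Olfr536 were singled out after their values were seen. Some well expressed receptors were not called, such as Olfr689, at 20.6, 17 and 16.7 CPM and then 24.5, 17.2 and 23.9 CPM (0.27 ± 0.26).

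By chromosome, 130 of the 247 receptors tested on chromosome 2 rose, 84 of 211 on chromosome 7, 42 of 120 on chromosome 9 and 43 of 76 on chromosome 11. Medians on these 4 chromosomes ran from 0.83 on chromosome 7 to 1.1 on chromosome 2. The 21 receptors on chromosome 4 had the lowest median of any chromosome, 0.43, with 5 higher. These differences between chromosomes were not tested.

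Receptor transcripts made up 0.3044%, 0.23% and 0.2948% of gene counts at P3 and 0.5549%, 0.4369% and 0.5838% at P14. The means were 0.276% ± 0.0405 and 0.525% ± 0.0778 (SD, n = 3 each), a ratio of 1.9, and the groups do not overlap. The exact two-sided permutation p was 0.1, the smallest that 3 against 3 libraries can give. At an equal depth of 9733616 counts nearly all receptor genes had a read at either age, 1070.0 ± 5.09 at P3 and 1076 ± 4.32 at P14 (exact permutation p = 0.3). With at least 5 reads required, 937.8 ± 50.2 and 1013 ± 19.5 genes were detected (exact permutation p = 0.1). The 10 most abundant receptors held 7.605% to 8.454% of receptor counts at P3 and 7.918% to 10.1% at P14. Values of receptors with near-identical copies are uncertain, because reads that map to several places stayed outside the gene counts.

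**Figure D3:**
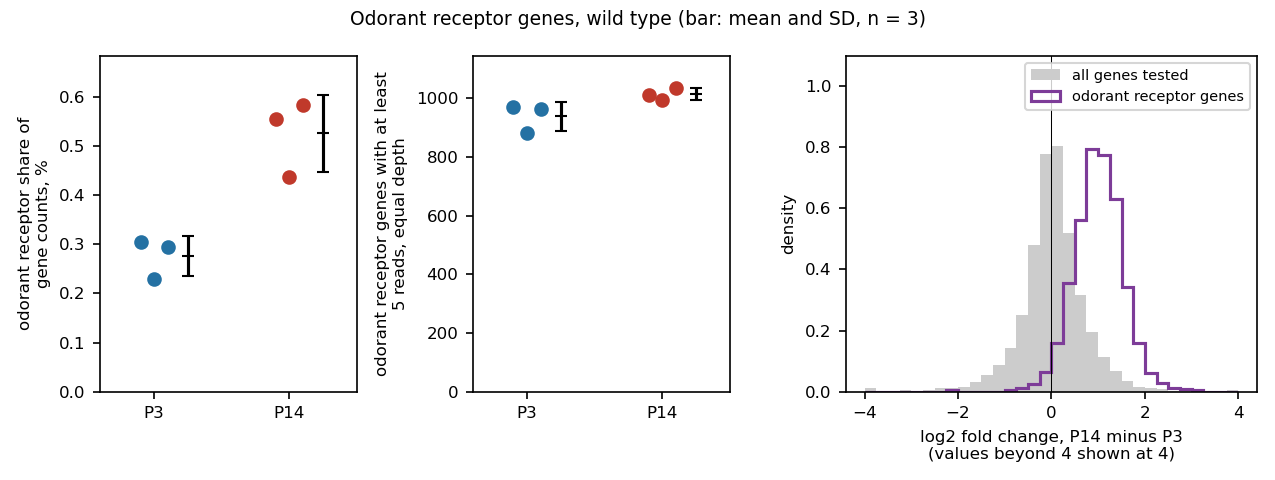
Left and middle, the odorant receptor share of gene counts and the number of receptor genes with at least 5 reads at equal depth, per library, with mean and SD. Right, the distribution of log2 fold changes of 997 receptor genes, centred near 1.01, beside that of all genes tested, centred near 0.03.

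Of 11 trace amine receptors, a second family of olfactory receptors, 2 rose (Taar2 by 1.36 ± 0.32 and Taar6 by 1.37 ± 0.33) and all 11 had a positive fold change (median 0.82). Of all genes 12.9% were called higher. Of 66 vomeronasal receptors tested 1 was called, Vmn1r180 (1.72 ± 0.59), at 0.31 ± 0.06 and 1 ± 0.74 CPM. That call was lost without P14 replicate 3 or any single P3 library and was not made by DESeq2, and the summed level of the list overlapped, at 9.77 to 15.6 and 10.4 to 13.9 CPM.

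Genes of dividing progenitors moved the other way. Of 14 genes of globose basal progenitors 12 fell and none rose (median -1.15), and their summed level dropped from 1699.8 to 1915 CPM at P3 to 923 to 1073 CPM at P14. Kit, a receptor tyrosine kinase of these cells, went from 139, 139 and 151 CPM to 58.8, 63.6 and 53.5 CPM (-1.29 ± 0.12, adjusted p = 1.39e-09). No library of Kit crossed between the ages. Neurog1 and Neurod1, transcription factors of neuronal precursors, fell by 1.54 ± 0.26 and 1.24 ± 0.20. Tead2 fell by 1.47 ± 0.15 and Ezh2, the histone methyltransferase, by 0.97 ± 0.13. The exceptions were Lgr5, a receptor of Wnt-responsive stem cells, at 15.9 ± 0.81 and 15.8 ± 2.58 CPM (-0.01 ± 0.19), and Insm1 (-0.40 ± 0.23, adjusted p = 0.215).

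All 26 mitosis genes tested fell, beside 9.7% of all genes lower, with a median of -1.36, and the 26 of 26 held when each of the 6 libraries was left out in turn. Aurkb, the Aurora B kinase of chromosome segregation, went from 30.9, 32.6 and 31.5 CPM to 7.27, 10.9 and 9.12 CPM (-1.80 ± 0.14, adjusted p = 3.47e-11). Plk1, the polo-like kinase, fell by 1.72 ± 0.14, and Bub1b, a spindle checkpoint kinase, by 1.65 ± 0.14. Cdc20, an activator of the anaphase-promoting complex, went from 52.6, 66.9 and 58.6 CPM to 17.4, 17.5 and 22.2 CPM (-1.64 ± 0.13, adjusted p = 9.71e-11), and Ube2c, the ubiquitin-conjugating enzyme of that complex, from 35.9, 35.6 and 38.9 CPM to 10.4, 12 and 13.6 CPM (-1.61 ± 0.14). Within this list the fold changes ran only from -1.80 to -0.86. All 26 DNA replication genes fell too (median -1.13), from Rrm2, a ribonucleotide reductase subunit, at -1.71 to Rfc5, a clamp-loader subunit, at -0.49. Mcm3, of the replicative helicase, went from 78.5, 86.5 and 68 CPM to 23.4, 27.1 and 29.5 CPM (-1.54 ± 0.17), and Lig1, the replicative DNA ligase, fell by 1.40 ± 0.15. Both lists were made up of genes known to be expressed together in cycling cells, so their members are not independent of each other.

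The promoters of Cdc20 and Ube2c are shown because mitotic genes fell together and often carry CCAAT boxes and cell cycle homology elements. The 250 bases before each start come from RefSeq on GRCm38.p6, for Cdc20 at chr4:118437344-118437593 on the minus strand and for Ube2c at chr2:164769679-164769928 on the plus strand. Capitals mark, on either strand, the CCAAT box and the 2 forms of the homology element that were searched. TTTGAA was the commoner form among all genes with a promoter and TTCGAA the rarer.
Cdc20: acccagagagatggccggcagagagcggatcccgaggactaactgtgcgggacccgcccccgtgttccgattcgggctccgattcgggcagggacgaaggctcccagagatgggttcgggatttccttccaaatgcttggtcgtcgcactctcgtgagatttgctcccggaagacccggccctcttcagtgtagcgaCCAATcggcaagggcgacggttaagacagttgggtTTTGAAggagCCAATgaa
Ube2c: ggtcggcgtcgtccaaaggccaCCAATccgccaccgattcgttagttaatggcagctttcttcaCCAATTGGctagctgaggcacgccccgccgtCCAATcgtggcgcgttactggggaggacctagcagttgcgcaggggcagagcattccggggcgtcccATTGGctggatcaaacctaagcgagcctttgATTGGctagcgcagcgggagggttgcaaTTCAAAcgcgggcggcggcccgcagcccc
A gene was counted when any of its promoter windows held the letters. Among the 22 mitosis genes with a promoter in the table, CCAAT occurred on either strand in 19 (86.4%). The shares were 37.5% of all 27025 genes with a promoter and 13 of 22 DNA replication genes (59.1%). TTTGAA occurred in 9 of the 22 mitosis genes (40.9%) and in 18.3% of all, and TTCGAA in 2 (9.09%) and in 1.55% of all. The motifs and genes shown were chosen with the fold changes known, and a match of letters is not evidence of a bound site.

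Horizontal basal cells are the reserve stem cells of the tissue, and most of their genes were not called: 3 of 15 fell, beside 9.7% of all genes, and none rose (median -0.34). Krt5, the keratin that defines them, overlapped between ages, at 54.4, 100.2 and 68 CPM and then 50.6, 68 and 67.8 CPM (-0.26 ± 0.52). Trp63, the transcription factor that keeps them dormant, stood at 22.5 ± 5.15 and 21 ± 1.12 CPM. The 3 that fell encode adhesion molecules, Cdh3 (-0.85 ± 0.16), Itgb4 (-0.96 ± 0.25) and Itga6 (-0.62 ± 0.19).

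**Figure D4:**
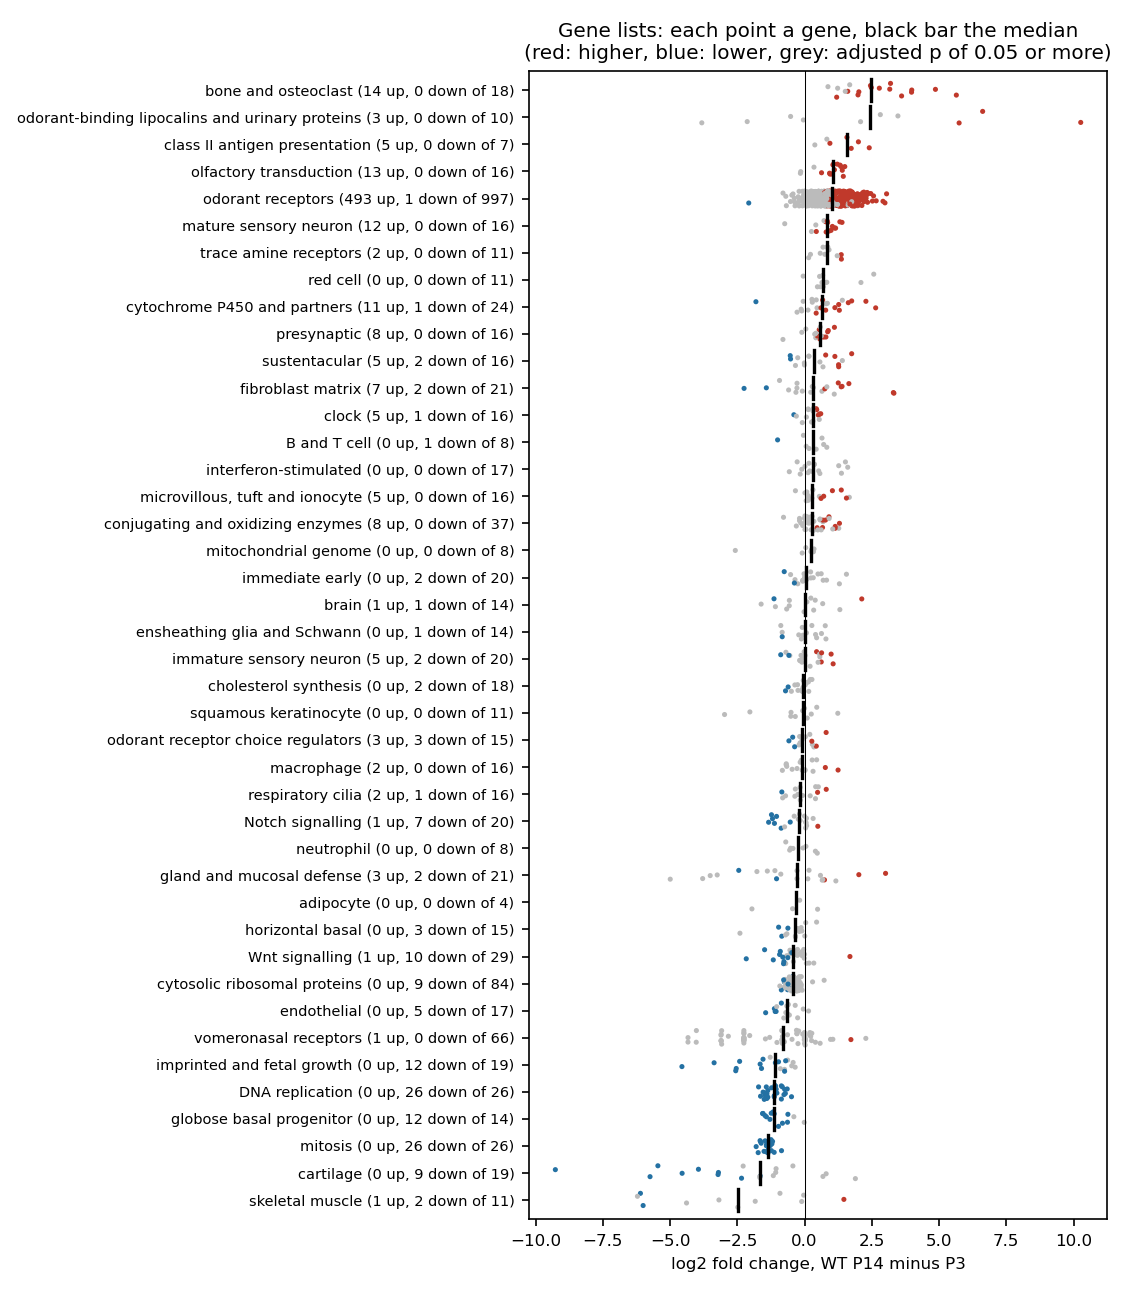
Log2 fold change (horizontal) of every tested member of the 42 gene lists, with the list median as a black bar and the counts called up and down in the label. Mitosis, DNA replication and globose basal progenitor lists lie to the left of 0 with few or no grey points, and the bone, transduction and odorant receptor lists lie to the right.

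Several genes that mark sustentacular cells rose. Cyp2g1, the cytochrome P450 that marks olfactory sustentacular cells and Bowman's glands (chromosome 7, 26808892 to 26821205), stood at 1954, 1626 and 1962 CPM at P3. At P14 it stood at 4327, 3839 and 5189.9 CPM, above all P3 libraries (1.27 ± 0.26, adjusted p = 0.000402), a 2.41-fold rise. Of 16 sustentacular genes 5 rose and 2 fell (median 0.37), the falls a share near the 9.7% of all genes called lower. Sec14l3, a lipid-transfer protein, rose from 1167 ± 141 to 2803 ± 65.3 CPM (1.26 ± 0.20), Cyp1a2 by 1.75 ± 0.25 and Cyp2a5 by 1.13 ± 0.32. Among those lower was the transcription factor Hes1 (-0.53 ± 0.17), while the keratin Krt18 was not called (-0.25 ± 0.18). The 2 falls became 1 without P14 replicate 1, P14 replicate 2 or P3 replicate 3, and the 5 rises became 3 with both libraries that stood apart left out.

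Cytochrome P450 genes and their partners gave 11 rises and 1 fall among 24 (median 0.64). Cyp2e1, an ethanol-metabolizing P450, went from 2.5, 2.03 and 1.9 CPM to 13, 13.9 and 13.1 CPM (2.64 ± 0.38, adjusted p = 3.13e-06), a 6.25-fold rise with no overlap. Cyp4b1 went from 13, 18.4 and 20.4 CPM to 89, 95.6 and 68.2 CPM (2.28 ± 0.26). Cyp3a13 rose by 1.63 ± 0.29 and Cyp27a1, a sterol hydroxylase, by 1.29 ± 0.20. The fall was that of Cyp1b1 (-1.81 ± 0.61, adjusted p = 0.0292), a call lost without P14 replicate 2, P14 replicate 3, P3 replicate 2 or P3 replicate 3. Por, the reductase that supplies electrons to microsomal P450 enzymes, was not called, at 690.0 ± 41.3 and 933 ± 88.4 CPM (0.43 ± 0.23, adjusted p = 0.169). The rises numbered 7 without P3 replicate 2 and 6 with both libraries that stood apart left out. Conjugating and oxidizing enzymes gave 8 of 37 higher, beside 12.9% of all genes, and none lower (median 0.28). Sult1d1, a sulfotransferase, rose by 1.30 ± 0.29, Fmo5, a flavin monooxygenase, by 1.14 ± 0.22, and Mgst1, a membrane glutathione transferase, by 0.68 ± 0.17, while the abundant Gstm1 stood at 1179 ± 41.3 and 1253 ± 160.4 CPM (0.09 ± 0.24). The 8 became 4 without P14 replicate 3, 5 without P3 replicate 2 and 3 without both libraries that stood apart.

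Secreted lipocalins gave the 3 largest of the called rises that reached 5 CPM with no overlap. Lcn4, a lipocalin, had 1 read over the 3 P3 libraries and 1427 over the 3 P14 libraries, a ratio of 1.45e+03 with an exact counting interval at 95% of 260 to 5.73e+04. Obp2b, an odorant-binding protein, went from 4.7, 9.09 and 5.55 CPM to 597, 813 and 494 CPM (6.62 ± 1.27, adjusted p = 0.000218), a 98.4-fold rise. Obp1b, on the X chromosome, went from 0, 0.794 and 0.351 CPM to 21.3, 6.13 and 35.6 CPM (5.75 ± 1.98, adjusted p = 0.033), a call lost when most single libraries were left out. In all 3 every P14 library lay above every P3 library, which the rule that named them required. Of the 10 lipocalins and urinary proteins tested no others were called. Obp2a, next to Obp2b on chromosome 2, stood at 1.15, 233 and 211 CPM and then at 610.1, 879 and 398 CPM (2.08 ± 1.23, adjusted p = 0.234). Lcn11, a further neighbor, stood at 105, 1411 and 1769.7 CPM and then at 66.6, 40.9 and 125 CPM (-3.82 ± 1.80, adjusted p = 0.126). In both genes P3 replicate 1 was the low library of its group. The genes Obp2a (25700043 to 25703326), Obp2b (25737009 to 25740097), Lcn3 (25765569 to 25768099) and Lcn11 (25777017 to 25780279) lie close together on the plus strand of chromosome 2.

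Gland and mucosal defense genes went in both directions, 3 higher and 2 lower of 21 (median -0.28), shares of the list near the 12.9% and 9.7% of all genes. Scgb1c1, a secretoglobin of the olfactory mucosa, went from 348, 335 and 357 CPM to 1262, 1493 and 1454 CPM (2.02 ± 0.19, adjusted p = 1.48e-09), a 4.05-fold rise. Bpifb3, of a family of lipid-binding mucosal defense proteins, went from 107, 64.8 and 96.2 CPM to 599.9, 857 and 708 CPM (3.01 ± 0.33, adjusted p = 3.12e-08), an 8.06-fold rise, and its relative Bpifb4 rose by 0.74 ± 0.25. In Scgb1c1 and Bpifb3 P3 replicate 1 did not stand apart. Bpifb3 varied more than Scgb1c1, at 89.5 ± 22.1 and 722 ± 129 CPM against 346 ± 10.8 and 1403 ± 123.5 CPM (SD, n = 3 each). The relatives Bpifb9a and Bpifb9b varied widely: Bpifb9a stood at 1.34, 4518 and 6418 CPM at P3 and at 767, 276 and 109 CPM at P14 (-3.25 ± 2.09, adjusted p = 0.28), and Bpifb9b at 2688, 1001 and 402 CPM at P14 (-3.51 ± 2.12, adjusted p = 0.245). The abundant Bpifa1 stood at 4516 ± 198 and 5067 ± 709 CPM (0.17 ± 0.25). Sox9, a gland duct transcription factor, fell by 1.04 ± 0.26, and the gel-forming mucin Muc19 fell by 2.45 ± 0.69, with P3 replicate 1, at 0.384 CPM, below the P14 libraries. The falls of this list numbered 5 without P3 replicate 1 and 1 without P3 replicate 2 or 3.

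Several of the largest falls shared that low library. A4gnt, a glycosyltransferase of gland mucins, had 533 reads over the P3 libraries and 2 over the P14 libraries, a ratio of 0.00381 with a counting interval of 0.00046 to 0.0138, but its P3 levels were 0.096, 16.9 and 23.9 CPM. Apol10a was at 1.25, 42.5 and 21.9 CPM at P3 and at 0.378, 0.292 and 0.891 CPM at P14 (-5.29 ± 1.71, adjusted p = 0.023). Car6, a secreted carbonic anhydrase, was at 17, 132 and 74.6 CPM and then at 3.21, 0.876 and 5.28 CPM (-4.52 ± 1.64, adjusted p = 0.0427). F5, coagulation factor V, was at 4.41, 14.5 and 9.49 CPM and then at 0.378, 0.292 and 0.686 CPM. The calls of A4gnt, Apol10a, Car6 and F5 were lost when single libraries were left out. Agtr2, Cited4, Barx2 and Prom2 fell with P3 replicate 1 likewise the lowest of its group, by 5.11, 3.05, 2.97 and 2.63. Whether the share of gland in each dissection accounts for these falls was not tested.

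In Olfm5 and H19 P3 replicate 1 was again the lowest of its group, but far above every P14 library. Olfm5, a secreted olfactomedin-domain protein (chromosome 7, 104153013 to 104164831), went from 557, 614 and 761 CPM to 54.7, 39.7 and 64.8 CPM (-3.60 ± 0.38, adjusted p = 1.15e-08), to 0.0824 of its P3 level. H19, an imprinted long noncoding RNA (chromosome 7, 142575529 to 142578143), went from 384, 670.1 and 426 CPM to 50.1, 41.8 and 51.8 CPM (-3.36 ± 0.37, adjusted p = 3.32e-08). In both genes the groups are separated by a wide gap. Among rises outside the lists, Moxd2, a monooxygenase relative, went from 2.5, 2.12 and 2.88 CPM to 46.8, 24.9 and 47.4 CPM (3.98 ± 0.45), Atp10d, a lipid flippase, from 24.2 ± 4.1 to 286 ± 27.2 CPM (3.56 ± 0.64), and Dcpp2 from 0.9 ± 0.23 to 12 ± 2.73 CPM (3.74 ± 0.52).

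H19 belongs to a list of imprinted and fetal growth genes, of which 12 of 19 fell, none rose and all 19 had a negative fold change (median -1.08). Their summed level was 1304 to 1591 CPM at P3 and 556 to 629 CPM at P14. Igf2, insulin-like growth factor 2, which lies next to H19 (142650766 to 142666816), went from 10.4, 17 and 12.4 CPM to 1.89, 2.82 and 2.06 CPM (-2.56 ± 0.40, adjusted p = 1.24e-05). Dlk1, a Notch ligand relative, fell by 4.56 ± 1.07 from 4.61, 6.97 and 4.92 CPM, and Meg3, a noncoding RNA of the same imprinted cluster, by 2.41 ± 0.47. The RNA-binding proteins Igf2bp3 and Igf2bp1 fell by 1.6 ± 0.21 and 2.54 ± 0.49, and the growth inhibitors Cdkn1c and Grb10 by 1.54 ± 0.24 and 1.08 ± 0.20. Peg3 (-0.42 ± 0.26), Igf2r (-0.35 ± 0.17) and Plagl1 (-0.48 ± 0.22) were not called.

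Bone genes rose and cartilage genes fell. Of 18 genes of bone and osteoclasts 14 rose and none fell (median 2.47). Bglap, osteocalcin, went from 1.34, 0.176 and 0.773 CPM to 30.3, 24.1 and 12.3 CPM (4.87 ± 0.79, adjusted p = 2.27e-05). Acp5, the tartrate-resistant phosphatase of osteoclasts, went from 10.1, 9.7 and 11.5 CPM to 153, 170.5 and 59.4 CPM (3.61 ± 0.64), and Ctsk, their collagen-degrading cathepsin, rose by 2.45 ± 0.52. Dmp1 and Mepe, matrix proteins of osteocytes, rose by 3.98 ± 1.01 and 5.64 ± 1.25. P14 replicate 3 was the lowest of its group in Bglap, Acp5, Dmp1, Mepe and Ctsk, yet above every P3 library in each. The 14 rises numbered 10 without P14 replicate 2 or P3 replicate 2, 11 without P14 replicate 1 or P3 replicate 3, 13 without P3 replicate 1, 15 without P14 replicate 3 and 14 without both libraries that stood apart. Of 21 fibroblast matrix genes 7 rose and 2 fell (median 0.33), the falls a share near the 9.7% of all genes called lower. The type I collagens Col1a1 (3.32 ± 0.68) and Col1a2 (3.30 ± 0.67) rose, Col1a1 from 516, 635 and 572 CPM to 6793, 8773 and 1653 CPM, and these are also made by bone cells. Fbn2, a fibrillin of early elastic fibers, and Eln, elastin, fell by 2.25 ± 0.30 and 1.42 ± 0.35. The list's 7 rises became 4 when P14 replicate 1, P14 replicate 2, P3 replicate 1 or P3 replicate 2 was left out.

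Of 19 cartilage genes 9 fell and none rose (median -1.66). Col2a1, the main cartilage collagen, went from 202, 42.5 and 214 CPM to 14.7, 21.7 and 13.5 CPM (-3.20 ± 0.87, adjusted p = 0.00674). Col10a1, the collagen of hypertrophic cartilage, went from 179, 66.6 and 284 CPM to 11.8, 17.2 and 27.6 CPM (-3.22 ± 0.91). Hapln1, a link protein of cartilage proteoglycan, went from 56.8, 14.8 and 33.5 CPM to 1.79, 0.876 and 1.71 CPM (-4.55 ± 1.03). P3 replicate 2 held the least of all 3, still above each P14 library, which the rule for the largest falls required. Clec3a had 164 reads at P3 and 0 at P14, which is at least 53.8-fold lower against a floor of 3 reads over the group. Col11a1 and Col11a2, which bone also expresses, were not called (0.80 ± 0.64 and 1.89 ± 0.87). In the 6 libraries alone Col11a2 was called higher (adjusted p = 0.0166, and 0.0366 with the replicate block), and with the block 2 of the list were. The 9 falls became 5 without P14 replicate 1 or without P14 replicate 3, 6 without P14 replicate 2, P3 replicate 1 or P3 replicate 3, and 4 without both libraries that stood apart. How much bone and cartilage each dissection included was not tested.

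Muscle, squamous and blood genes served as further checks on the dissection. Of 11 skeletal muscle genes 1 rose and 2 were called lower, beside 12.9% and 9.7% of all genes. Neither fall was called without P3 replicate 1 or without any single P14 library, and the rise was not called without P14 replicate 3, P3 replicate 1 or P3 replicate 2. Tnnt3, a troponin, was at 13.1, 0.176 and 0.211 CPM at P3, so that nearly all of its reads lay in replicate 1. The summed muscle level was 10.3 to 126 CPM at P3 and 11.7 to 13.5 CPM at P14. None of 11 squamous keratinocyte genes, 11 red cell genes or 4 adipocyte genes was called. With P0 replicate 3 placed in P3, as its stage label has it, 6 squamous genes (median of the list -4.62) and 2 adipocyte genes were called lower. In the 6 libraries alone with the replicate block, 1 squamous gene and 2 adipocyte genes were called lower and 1 red cell gene higher. A single red cell gene was also called higher without P14 replicate 3. The red cell sum was 30 to 76.6 and 69.6 to 109 CPM. Respiratory cilia genes gave 2 rises and 1 fall of 16, the rises a share near the 12.9% of all genes called higher. The ciliogenesis factor Foxj1 stood at 166 ± 54.6 and 131 ± 20.4 CPM (-0.34 ± 0.26). The 2 rises became 1 without P14 replicate 1, P14 replicate 3 or P3 replicate 1, and 2 genes were lower without P3 replicate 1. Of 14 brain genes Slc1a2, a glutamate transporter of astrocytes, rose from 33.3, 27.2 and 23 CPM to 136, 119 and 109 CPM (2.13 ± 0.43), and Gad2 fell by 1.14 ± 0.32, a call lost with both libraries that stood apart left out. A single call each way in 14 is below the 12.9% and 9.7% of all genes. The brain sum did not overlap between ages, at 604 to 721 CPM at P3 and 827 to 923 CPM at P14.

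Genes of rarer cells of the epithelium followed in part. Of 16 genes of microvillous cells, tuft cells and ionocytes 5 rose, beside 12.9% of all genes, and none fell (median 0.29). Avil, an actin-binding protein of tuft cells, went from 1.44, 2.12 and 1.83 CPM to 5.19, 5.45 and 5.28 CPM (1.56 ± 0.25, adjusted p = 2.28e-05), and Coch, cochlin, rose by 1.37 ± 0.22. Trpm5, the channel that defines tuft-like microvillous cells, stood at 7.05 ± 0.38 and 10.4 ± 2.07 CPM (0.55 ± 0.34, adjusted p = 0.251), and the ionocyte genes Foxi1 (-0.34 ± 0.14) and Cftr (0.13 ± 0.17) were not called. The 5 became 2 without P14 replicate 1, P14 replicate 2 or P3 replicate 2, and 3 without P14 replicate 3 or P3 replicate 3. Among 14 glial genes only Gfra2 was called (-0.83 ± 0.28), though not without P14 replicate 1 or P14 replicate 3, and Fabp7, a lipid-binding protein of ensheathing glia, stood at 84.1 ± 26.6 and 129.9 ± 18 CPM.

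Class II antigen presentation genes rose, with 5 of 7 genes higher and none lower (median 1.57), and the count was 5 when each of the 6 libraries was left out in turn. It was 4 with both libraries that stood apart left out, and 6 in the 6 libraries alone without the replicate block. H2-Aa, a class II chain, went from 1.73, 3 and 2.67 CPM to 14, 12.6 and 13 CPM (2.40 ± 0.45, adjusted p = 0.000181). Cd74, the invariant chain, went from 3.65, 6.62 and 4.22 CPM to 22.5, 21.9 and 13.8 CPM (2.0 ± 0.36), and H2-Ab1 rose by 1.73 ± 0.31. Of 16 general macrophage genes 2 were higher (Cd68 by 1.25 ± 0.32 and Csf1r by 0.77 ± 0.28) and the lysozyme Lyz2 stood at 58 ± 28.6 and 36.8 ± 8.42 CPM (-0.66 ± 0.39). A share of 2 in 16 is near the 12.9% of all genes, and 1 was called without P14 replicate 1, P14 replicate 2, P3 replicate 1 or P3 replicate 2. Of 8 B and T cell genes Lck, a T cell kinase, was called (-1.0 ± 0.32), but not without P14 replicate 2 or P3 replicate 2, and none of 8 neutrophil or 17 interferon-stimulated genes was. A single call in 8 is near the 9.7% of all genes called lower. Endothelial genes leaned downward, with 5 of 17 called lower, beside 9.7% of all genes (median of the list -0.66). Among them were Erg (-1.45 ± 0.40) and the junction protein Cdh5 (-1.09 ± 0.34). The 5 became 0 without P14 replicate 3, 1 without P3 replicate 3, 3 without P14 replicate 1 or P3 replicate 2, and 8 without P3 replicate 1.

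In 2 signaling pathways that act on progenitors, more genes fell than rose, beside 9.7% lower and 12.9% higher of all genes. Of 20 Notch pathway genes 7 fell and 1 rose (median -0.21). The ligands Dll1 and Dll3 fell by 1.04 ± 0.24 and 1.23 ± 0.25, the receptor Notch1 from 90.5, 96.7 and 106 CPM to 44.6, 67.6 and 48.5 CPM (-0.87 ± 0.18), and the Fringe enzymes Mfng and Lfng, which modify the receptor, by 1.34 ± 0.20 and 1.12 ± 0.17. The ligand Jag1 rose by 0.49 ± 0.11, and the receptor Notch2 stood at 196 ± 15.7 and 196 ± 16.2 CPM. Of 29 Wnt pathway genes 10 fell and 1 rose (median -0.42). The receptors Fzd2, Fzd9 and Fzd10 fell by 0.78 ± 0.18, 1.49 ± 0.35 and 2.17 ± 0.54, the target gene Axin2 by 0.62 ± 0.15, the repressor Tcf7l1 by 0.81 ± 0.20 and the secreted inhibitor Sfrp1 by 0.77 ± 0.16. The secreted inhibitor Wif1 rose by 1.69 ± 0.50, and no gene of the list was called higher without P14 replicate 1, P14 replicate 2 or P3 replicate 2, against 2 without P14 replicate 3.

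Circadian clock genes shifted by small amounts, with 5 of 16 higher and 1 lower, beside 12.9% and 9.7% of all genes (median of the list 0.31). Tef, a clock output factor, went from 113, 104 and 127 CPM to 174, 187 and 162 CPM (0.60 ± 0.10, adjusted p = 1.84e-05), Per2 rose by 0.55 ± 0.15 and Arntl, the activator BMAL1, fell by 0.40 ± 0.14. No time of day is recorded in the labels. The 5 rises became 3 without P14 replicate 1, P3 replicate 2 or P3 replicate 3, and 2 without P14 replicate 2, and no clock gene was called lower without P14 replicate 1, P14 replicate 2 or any single P3 library. Of 84 ribosomal protein genes 9 were called lower, a share near the 9.7% of all genes, none higher and 82 had fold changes below zero (median -0.43), as for Rpl8 at 479.6, 676 and 575 CPM and then 325, 377 and 421 CPM (-0.62 ± 0.17). That count was 3 without P3 replicate 2 and, in the 6 libraries alone, 34 without and 63 with the replicate block. Of 18 cholesterol synthesis genes 2 fell, Mvd and Dhcr7, by 0.71 ± 0.19 and 0.61 ± 0.12. Of 20 immediate early genes 2 fell, Nr4a2 (-0.76 ± 0.27) and Btg2 (-0.38 ± 0.14). Both are shares near the 9.7% of all genes called lower. No immediate early gene was called lower without P14 replicate 3 or P3 replicate 2, and 1 was without P14 replicate 1, P14 replicate 2 or P3 replicate 3. None of 8 genes of the mitochondrial genome was called.

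The other ages with 3 or more wild-type libraries of the same title prefix, P0 and P21, frame the 2 compared ages. These values stand beside the comparison and share its libraries. Omp stood at 355 ± 52.9 CPM at P0, 787 ± 13.5 at P3, 2067 ± 178 at P14 and 2433 ± 154 at P21 (SD, n = 4 at P0 and 3 at the other ages). Olfm5 stood at 2705 ± 719.9, 644 ± 105, 53.1 ± 12.6 and 14.2 ± 8.33 CPM at these ages, lower at each age than at the one before. Obp2b stood at 4.16 ± 1.38, 6.45 ± 2.33, 635 ± 163 and 2023 ± 805 CPM. Aurkb was highest at P3 of the 4 ages, at 18.8 ± 2.24, 31.7 ± 0.83, 9.1 ± 1.81 and 6.54 ± 1.27 CPM. Between P3 and P0 Aurkb was higher by 0.75 (edgeR adjusted p = 4.3e-05). Between P21 and P14 Omp differed by 0.23 and Cyp2g1 by 0.07, neither called.

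**Figure D5:**
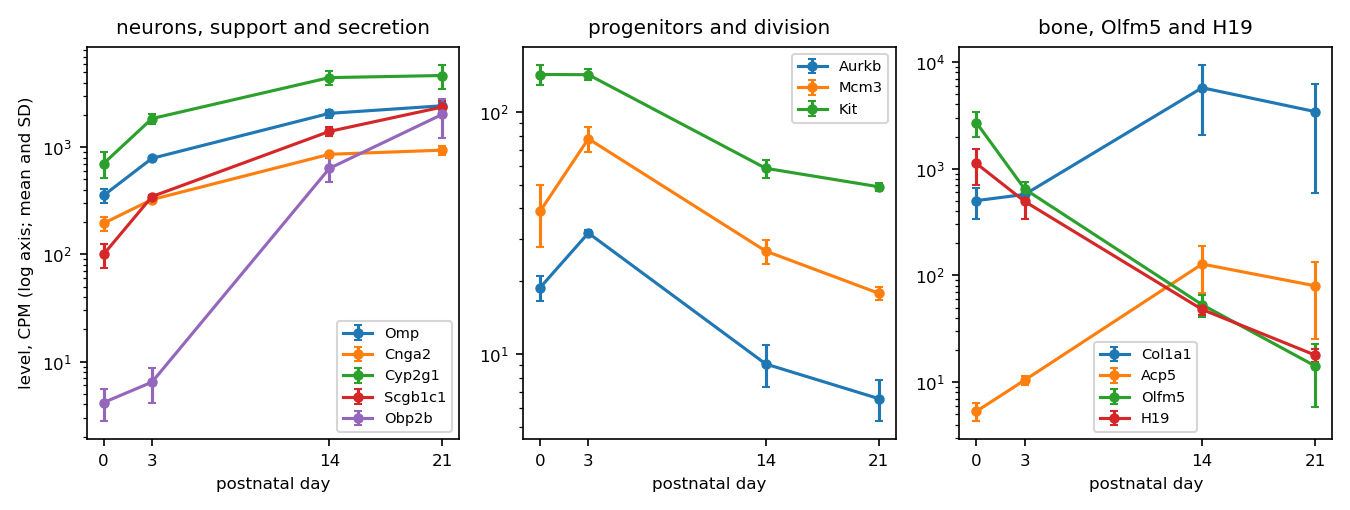
Mean level in CPM on a log axis, with SD, of 12 genes at P0, P3, P14 and P21 in wild type (n = 4 at P0 and 3 at the other ages). Omp, Cnga2 and Cyp2g1 climb to P14 and then level off, Aurkb and Mcm3 are highest at P3, and Olfm5 and H19 are lower at each later age.

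The same interval was compared in the Kir mice by testing the difference between the 2 changes. In Kir, 5092 of 19927 genes (25.6%) were called between P14 and P3. For the difference edgeR called 0 genes (0.0%), with 1336 at an unadjusted p below 0.05 and a smallest adjusted p of 0.247, while DESeq2 called 19. Of those 19, 11 had fitted differences beyond 15 log2 units either way, and such fitted values are not read as sizes. Among them were the 4 Y-linked genes Kdm5d, Uty, Ddx3y and Eif2s3y. Sex was not among the labels used and was a term of no fit. Whether it differs between the groups compared, wild-type P3 and P14 included, was not tested. In the P3 and P14 libraries alone 6 genes were called, and 19 with the replicate number as a block, of which DESeq2 also called 4. Those 6 were named after their values were seen, and all belong to class I antigen presentation or interferon responses. H2-K1, a class I chain (chromosome 17, 33996017 to 34000347), stood in wild type at 64.2, 108 and 90.8 CPM at P3 and at 80.6, 98.8 and 109 CPM at P14. In Kir it stood at 129, 193 and 121 CPM and then at 656, 654 and 797 CPM. The wild-type ages overlap and the Kir ages do not, with log2 fold changes of 0.13 ± 0.32 and 2.25 in the fit of all libraries and a difference of -2.12 ± 0.45 (adjusted p = 0.247). H2-D1 (-2.10 ± 0.42), H2-Q4 (-1.95 ± 0.44), Tap1, a peptide transporter (-1.71 ± 0.54), B2m, the class I light chain (-1.60 ± 0.47), and Trim25 (-1.09 ± 0.28) had differences of the same sign. The fold changes of Omp (1.39 and 1.64), Cyp2g1 (1.27 and 1.24), Olfm5 (-3.60 and -3.66) and H19 (-3.36 and -3.44) in wild type and Kir stand side by side, with differences of -0.25 ± 0.27, 0.03 ± 0.36, 0.06 ± 0.48 and 0.08 ± 0.48. Aurkb had fold changes of -1.80 and -1.15 (difference -0.65 ± 0.19, adjusted p = 0.679).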

How the data were processed

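Gene counts were made by the authors and deposited as whole-number counts for 54532 genes, beside TPM that the authors deposited separately. The submitters' processing notes name mm10, RSEM, STAR 2.6.1c and bcl2fastq 2.18; no strand setting is stated, so antisense overlaps cannot be told apart. The 4 lines that name no gene (unmapped 3.164% to 9.256%, multiply mapped 7.44% to 12.99%, outside genes 6.235% to 9.791% and ambiguous 3.199% to 3.77% of reads in the 6 libraries) were left out. The count test was the quasi-likelihood F test of edgeR 4.0.16 under R 4.3.3, two-sided, with TMM and filterByExpr. All 47 libraries entered a single fit of group means plus the title prefix (cry3, cry4 or cry6, of unstated meaning). All 6 libraries carry cry4. Adjustment was by Benjamini-Hochberg over all genes tested. In counts simulated with changes at wild-type P14, 75 of 100 2-fold and 94 of 100 4-fold changes were recovered. Of the 184 calls made there 15 were false. The changed genes were drawn from those above a minimum mean level, and all other genes kept the same mean in every group. No library was made to stand apart, so these rates may not carry over to the comparison. Counting intervals and floors cover counting error only. Positions are GENCODE M21 on GRCm38 (19921 of 19927 tested genes matched). Receptor shares and detection were compared by exact permutation tests. Alternatives used DESeq2 1.42.0, limma 3.58.1 on log2(TPM + 1) or log2(TPM + 0.1), other scalings, filters and sets of libraries.

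Deviations of wild-type P3 and P14 libraries from their group means were correlated across genes. Libraries with the same replicate number gave r of 0.118, 0.119 and 0.239, and those with different numbers -0.171 to 0.0349. For this reason the block on replicate number was run as an alternative. With 3 libraries per group such deviations constrain each other, so these values do not establish a pairing. Kir libraries were not checked in this way. Genes named are Omp and Cyp2g1; the 15 largest called rises and falls with at least 5 CPM in the higher group, no overlap and an established symbol; and, per list of 42, up to 6 called members of smallest p and 3 others of highest level. Some further list members were chosen after their values were seen. A few genes that this rule names are not reported here. The members and lists were chosen with earlier results of these data known.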

Additional observations from a re-analysis of the deposited data

How the results depend on the processing

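Leaving out each of the 6 libraries in turn gave 2739 to 4089 genes called, 1319 to 2132 higher and 1408 to 1957 lower. Against 4501, 2569 and 1932, limma on log2(TPM + 0.1) called 2929 in all and 1164 lower, limma on log2(TPM + 1) 1182 lower, and the counts without a low-count filter 1560 higher. With P0 replicate 3 placed in P3, 3023 were lower. With the libraries that stood apart both left out, 1599 were higher. The replicate block in the 6 libraries gave 2851 higher and 2738 lower, against 2529 and 2310 without it. Beside the ribosomal list and the difference from Kir, the block moved other list counts in the 6 libraries. Rises of odorant receptors went from 524 to 585 and of cytochrome P450 genes from 12 to 15, and falls of endothelial genes from 8 to 10. Among small counts, falls of adipocyte and of lipocalin genes and rises of cartilage genes went from 1 to 2. Rises of macrophage genes and falls of respiratory cilia genes went from 2 to 1. From 0 to 1 went the falls of neutrophil and of microvillous genes and the rises of red cell and of horizontal basal genes. Further lists that moved are not given here. The 0 calls for the difference from Kir became 2 without a low-count filter, 6 in the P3 and P14 libraries alone, 19 with the replicate block, 19 by DESeq2, 1 with both libraries left out, and 0 to 1 without single libraries. Myl1 ran from -7.0 to 1.0 when single libraries were left out, turning from -6.0 to 1.0 without P3 replicate 1, and reached 1.68 with both left out; these positive values compare groups at or under 3 reads and are not read as a change of direction. The keratin Krt10 went from 0.10 to -2.80 with P0 replicate 3 in P3. The cause of these shifts was not tested. Of 181 named genes called, 143 kept their call without P3 replicate 2, the fewest of any alternative. Detection of receptors with P0 replicate 3 in P3 was not run, because that library is shallower than the common depth.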
